A study of Drosophila melanogaster with 4 samples.

Results

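RPD3 regions at the centromere-side ends of the 5 large chromosome arms of Drosophila melanogaster are described here, from embryos of the wild-type strain Oregon-R that were 14 to 16 h old. RPD3 is a histone deacetylase, and the data are lists of genome regions enriched after chromatin immunoprecipitation with the antibody labelled RPD3-Q3451. The series had 2 ChIP libraries and 2 input libraries, all of the same strain, genotype and stage. Each ChIP replicate had its own list, and 1 further list, here the combined list, belonged to the series; the sources used here do not describe how it was made. Nothing in the labels ties the replicates to separate collections of embryos, so their spread, given as an SD over n = 2, may be technical. With a single ChIP group no test between conditions was possible, and a difference is called larger or smaller than the spread between replicates only. Every score below is the authors' own value on a log2 scale, read as ChIP over input, and scores are compared only within a list.

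A region belonged to an end by position alone. Its midpoint, on FlyBase release 5, lay above 21000000 on 2L, below 2000000 on 2R, above 22500000 on 3L, below 1000000 on 3R or above 20900000 on X. These ends measured 2.01, 2.00, 2.04, 1.00 and 1.52 Mb, together 8.58 Mb or 7.21% of the 5 arms. They held 262 of the 7041 regions of replicate 1, 307 of the 7654 of replicate 2 and 858 of the 19364 of the combined list. Of the regions on the 5 arms alone, these were 3.86%, 4.14% and 4.74%, each below the share of length. The 2 regions marked as depleted in the combined list lay outside the ends (0 inside).

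The sequence next to a fly centromere passes from gene-rich euchromatin into pericentric heterochromatin, which is rich in repeats and transposons, poor in genes, and packed with the protein HP1a. Histones there carry few acetyl groups, and deacetylation of histone tails precedes the methylation that HP1a binds. RPD3 removes acetyl groups from histone tails within co-repressor complexes such as Sin3 and NuRD, and it is the fly relative of mammalian HDAC1 and HDAC2. Some essential genes, among them light and rolled, lie within pericentric heterochromatin and are active there. No gene is assigned to a region here, because the gene table used is of another release than the lists.

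RPD3 regions were sparse at the ends of 4 arms and not at the end of 3R. Over the 5 ends together the density was 30.5 regions per Mb in replicate 1 and 35.8 in replicate 2, against 59.0 and 64.3 in the rest of the same arms. The ratio of end to rest was 0.537 ± 0.0275 (SD, n = 2), and its distance from equality was many times that SD. Coverage was lower as well, with 6.06% of the bases at the ends inside a region in replicate 1 and 7.47% in replicate 2, against 13.5% and 15.7% in the rest. In the combined list the ends held 100.0 regions per Mb and the rest 156, a ratio of 0.640.

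The arms differed in how low the density was. On 2R the end had 26 and 30.5 regions per Mb in replicates 1 and 2, against 77.6 and 80.6 in the rest, a ratio of 0.357 ± 0.0306 (SD, n = 2). On 3L the values were 21.0 and 28.9 against 55.2 and 58.7 per Mb, a ratio of 0.437 ± 0.0782 (SD, n = 2). These were the lowest ratios of the 5 arms. On 2L the end had 25.9 and 28.3 against 48.8 and 53.0 per Mb, a ratio of 0.532 ± 0.00389 (SD, n = 2). On X it had 30.9 and 40.7 against 55.2 and 62.5 per Mb, a ratio of 0.605 ± 0.0651 (SD, n = 2). In these 4 arms every end value lay below both values of the rest. The end of 3R had 68.0 regions per Mb in each replicate, against 60.1 and 67.8 in the rest, and its ratio of 1.07 ± 0.0917 (SD, n = 2) lay within 1 SD of equality. In the combined list the 3R ratio was 0.875, on the other side of equality, and keeping only regions at or above the list's median score gave 0.848 in the replicate lists.

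Windows of the same length as each end, laid side by side from the border outwards, gave a second yardstick. On 2R the end held 52 and 61 regions in replicates 1 and 2, and the poorest of the other 9 windows held 116 and 122. On 3L it held 43 and 59, against at least 89 and 92 in the other 11 windows. Both ends thus held fewer regions than each of these windows in both replicates. On 2L the end held 52 and 57, and 1 of the other 10 windows was poorer in replicate 1, with 51, and none (0) in replicate 2, where the minimum was 58. On X the end held 47 and 62, and 1 of the other 13 windows was poorer in each replicate, with 46 and 48 regions. On 3R, 17 of the other 26 windows held fewer regions than the end in replicate 1 and 11 in replicate 2.

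**Figure D1:**
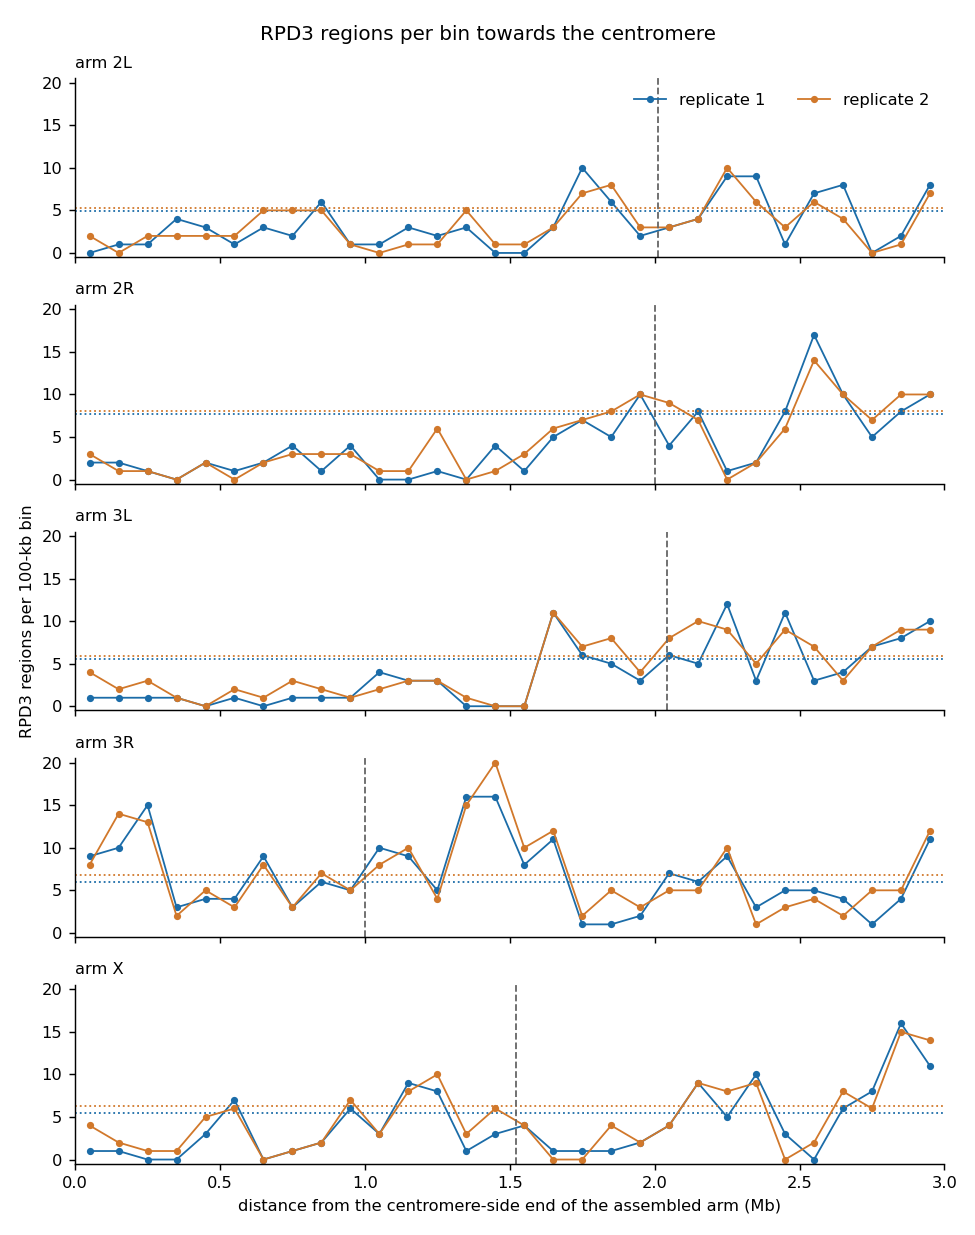
RPD3 regions per 100-kb bin (y axis, number of regions) against distance from the centromere-side end of each assembled arm (x axis, Mb) for replicate 1 (blue) and replicate 2 (orange). The dashed line marks the border of the end and the dotted lines the mean per bin in the rest of the arm. On 3L both replicates step from 0 to 11 regions between neighbouring bins, and on 3R the 3 innermost bins hold 8 to 15.

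Bins of 100 kb, counted from the centromere-side end, showed where the low density began, and each arm had its own course. On 3L it was a step. The 16 innermost bins held 0 to 4 regions each in both replicates, and the bins from 1400 to 1600 kb held 0 in both. The next bin, from 1600 to 1700 kb (22843558 to 22943557), held 11 regions in each replicate, the most of the 3L end in the replicate lists. It held 21 in the combined list, where the bin from 1800 to 1900 kb held 23. The density was 74 and 82 regions per Mb just outside the border, between 2 and 2.5 Mb, above the rest of the arm. In the first 0.5 Mb the replicates differed, with 4 regions in replicate 1 and 10 in replicate 2.

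On 2R the low stretch was as long but ended more gradually. The first 0.5 Mb held 7 regions in each replicate, 14 per Mb, and the stretch from 1 to 1.5 Mb held 5 and 9. From 1.5 to 2 Mb there were 28 and 34 regions, 56 and 68 per Mb, and the richest bin was the outermost, 1900001 to 2000000, with 10 in each replicate. The bin from 300 to 400 kb and that from 1300 to 1400 kb were empty in both replicates. Just outside the border, from 2 to 2.5 Mb, there were 46 and 48 per Mb, and from 2.5 to 3 Mb 100.0 and 102, while the rest of the arm had a median of 8 regions per bin in each replicate.

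On 2L the counts moved between 0 and 6 per bin over the inner 1600 kb and reached 10 and 7 in the bin from 1700 to 1800 kb (21211545 to 21311544), the richest of this end by the sum of both replicates. A second, smaller group lay from 800 to 900 kb, with 6 and 5 regions, and between the groups the bins from 1400 to 1600 kb held 0 in replicate 1 and 1 each in replicate 2. On X the course was uneven. Bins with 7 and 6 regions (500 to 600 kb) and with 9 and 8 (1100 to 1200 kb) alternated with bins of 0 in both replicates (600 to 700 kb). By the same sum the richest X bin ran from 21122828 to 21222827, with 8 and 10 regions. Outside the X border, from 1.5 to 2 Mb, the density was again low at 18 and 20 per Mb, and it was 62 and 60 per Mb from 2 to 2.5 Mb.

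On 3R the innermost bins were among the richest of the end. The 3 innermost bins held 9, 10 and 15 regions in replicate 1 and 8, 14 and 13 in replicate 2. The first 0.5 Mb had 82 and 84 regions per Mb, the next 54 and 52, and the first 0.5 Mb outside the border 112 and 114. The bin from 200001 to 300000 was the richest by the sum of both replicates, with 15 and 13 regions. In the combined list the order of the counts was the other way, with 128 per Mb in the first and 170 in the next 0.5 Mb. Its coverage was not reversed, at 33.6% of the bases in the first and 31.5% in the next 0.5 Mb. The median widths of its regions there were 2014.5 and 1625 bp.

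Over all full bins of the 5 ends, 15 of 85 were empty in replicate 1 and 9 of 85 in replicate 2, or 17.6% and 10.6%. In the rest of the arms 5.72% and 3.91% of 1101 bins were empty. All the empty bins at the ends lay on 2L, 2R, 3L and X. Across the 85 bins, the counts in one replicate tracked those in the other with Spearman's rho of 0.82 and Pearson's r of 0.88; across 1099 bins of the rest these were 0.87 and 0.86. Bins of 1 pair of libraries share those libraries, so these correlations are a description only. The combined list had no empty bin (0 of 85).

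Dividing each end at its middle put this in a single comparison. Over the 4 arms other than 3R, pooled after the arm values had been seen, the inner part had 16.1 and 21.6 regions per Mb in replicates 1 and 2. The outer part had 35.1 and 41.4, and the rest of these arms 58.7 and 63.2. Density was thus lower at each step towards the centromere, 0.627 ± 0.0407 (SD, n = 2) of the rest in the outer part and 0.308 ± 0.0482 (SD, n = 2) in the inner part. The inner part of 3L had 7.83 per Mb in replicate 1, the lowest of all, and 18.6 in replicate 2, which are 8 and 19 regions, and that of 2R had 19 and 18. On X the outer part, at 46.0 and 56.5 per Mb, was 0.869 ± 0.0499 (SD, n = 2) of the rest, and the inner part, at 15.8 and 24.95, was 0.342 ± 0.0804 (SD, n = 2).

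**Figure D2:**
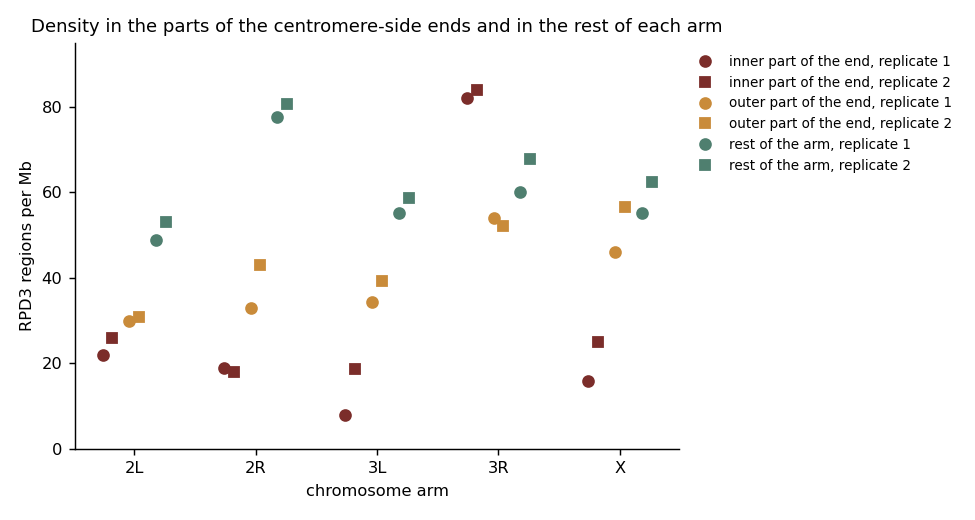
Density of RPD3 regions (y axis, regions per Mb) in the inner and outer part of each centromere-side end and in the rest of the arm, by arm (x axis), with circles for replicate 1 and squares for replicate 2. On 2L, 2R, 3L and X the inner part is lowest, from 7.83 to 25.9 per Mb, and on 3R it is highest, at 82 and 84 per Mb.

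Stretches without a region were long at the ends of 2L, 2R and 3L. The median stretch between regions was 23.1 kb in replicate 1 and 14.6 kb in replicate 2 on 3L, against 5.85 and 5.63 kb in the rest of that arm. On 2R it was 18.8 and 14.1 kb against 4.92 and 4.37 kb, and on 2L 13.4 and 18.3 kb against 5.89 and 5.68 kb. On X the medians were close to those of the rest, 6.18 and 5.50 kb against 5.09 and 4.51 kb. On 3R they were 5.27 and 5.34 kb against 5.40 and 4.98 kb.

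The longest single stretch at any end was on 3L, from 22939754 to 23293426 in replicate 1 (354 kb), and in replicate 2 the longest on that arm ran from 22942429 to 23146033 (204 kb). These are the empty bins just inside the step of the 3L profile. On X they ran from 21942819 to 22229539 in replicate 1 (287 kb) and from 21631670 to 21845884 in replicate 2 (214 kb), and on 2L from 21398486 to 21628405 (230 kb) and from 21829637 to 22017913 (188 kb). On 2R they ran from 990436 to 1219592 in replicate 1 (229 kb) and from 427495 to 657057 in replicate 2 (229.6 kb), so on 2L, 2R and X the longest stretch was at another place in each replicate. On 3R the replicates had nearly the same one, from 320432 to 464362 (144 kb) and from 312409 to 464189 (152 kb). The 2R stretches were longer than any in the rest of that arm, where the longest were 163 and 157 kb. On 2L, 3R and X, and on 3L, the rest held a longer one in both replicates. An example was 480 kb in replicate 1 on 2L, from 16902571 to 17382977. In the combined list the rest held the longer one on 2R, 121 against 79.3 kb, and on 2L, 88.1 against 65.8 kb. On 3L, 3R and X the end did, with 107, 99.6 and 111 kb against 103, 65.5 and 80.3 kb.

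The region nearest the centromere-side end of each assembled arm was looked up in each list. On 3R it began at the first bases of the arm, from 112 to 2205 in replicate 1 with a score of 0.74 and from 17 to 2396 in replicate 2 with a score of 0.97. On X it ran from 22413754 to 22416505 in replicate 1 (score 1.12) and from 22413663 to 22416516 in replicate 2 (score 1.03), at 7.70 and 7.74 kb from the end. On these arms the replicates had the same last region. On 2R the nearest were 57949 to 60275 in replicate 1 (score 0.99) and 18461 to 19843 in replicate 2 (score 0.52). On 3L they were 24457495 to 24458831 in replicate 1 (score 0.44) and 24498976 to 24502418 in replicate 2 (score 1.22), and on 2L 22851317 to 22852777 in replicate 1 (score 0.80) and 22959723 to 22961240 in replicate 2 (score 0.47). On 2R, 3L and 2L the last regions of the replicates thus lay at different places, 59.1 and 19.2 kb, 85.4 and 42.9 kb, and 160 and 51.1 kb from the end. The combined list held nearer regions on 4 arms, at 1.05 kb on 3L, 1.81 kb on X, 13.8 kb on 2R and 26.6 kb on 2L, and on 3R its nearest lay at 1.26 kb.

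The regions at the ends were also somewhat narrower, and wide ones were few. Median widths in replicates 1 and 2 were 1754.5 and 1759 bp, against 1886.5 and 1950 bp in the rest, a difference of -161.5 ± 41.7 bp (SD, n = 2). Regions of at least 4000 bp made up 2.29% and 5.21% of the members, 6 of 262 and 16 of 307, against 8.22% and 10.8% in the rest. Regions under 1500 bp made up 28.2% and 28.7%, against 24.9% and 23.2%. The upper quartiles lay further apart than the lower: the upper quartile was 2187 and 2248 bp against 2622 and 2855 bp, while the lower quartile was 1483 and 1456 bp against 1501 and 1519 bp. No region of either replicate list on these arms was narrower than 1301 bp, so the lower quartiles had little room to differ.

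By arm, the median width on X was 1817 and 1685 bp at the end against 1985 and 2000.5 bp in the rest, a difference of -242 ± 104 bp (SD, n = 2). On 2R it was 1681 and 1684 bp against 1839 and 1958 bp, and on 3L 1566 and 1813 bp against 1838 and 1934 bp. On 2L it was 1735.5 and 1738 bp against 1875 and 1951.5 bp. All 4 arms had the lower median at the end in both replicates. On 3R the medians were 1954 and 1844.5 bp against 1892 and 1921 bp, so the replicates differed in direction. In the combined list the pooled difference was only -23.5 bp, and on 2L it turned to 41.5 bp. That list held regions down to 1001 bp, against 1301 bp in the replicate lists, so its differences are not like for like.

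**Figure D3:**
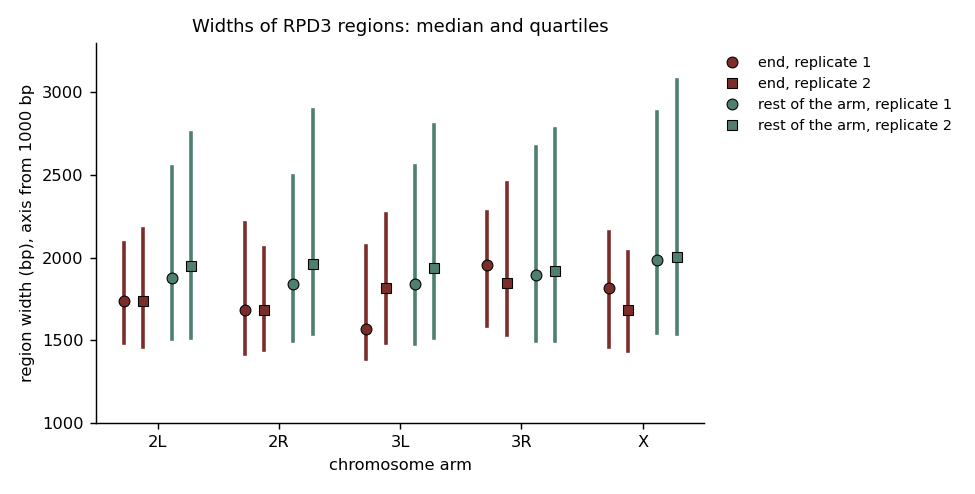
Widths of RPD3 regions (y axis, bp, starting at 1000 bp) at the centromere-side end (red) and in the rest (green) of each arm, with the median as a circle for replicate 1 or a square for replicate 2 and a bar from the lower to the upper quartile. On 2L, 2R, 3L and X the bars of the ends stop between 2033 and 2262 bp, below the upper quartiles of the rest.

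The typical score at the ends hardly differed from the rest, although far fewer regions were called. The median was 0.79 in replicate 1 and 0.81 in replicate 2 at the ends, against 0.80 and 0.79 in the rest, a difference of 0.01 ± 0.02 (SD, n = 2). On 3L the end was higher in both replicates, 0.82 and 0.84 against 0.77 and 0.76, a difference of 0.06 ± 0.03 (SD, n = 2). On X, whose scores are high along the whole arm, the end was lower in both, 0.89 and 0.88 against 0.96 and 0.93, a difference of -0.06 ± 0.01 (SD, n = 2). Of these arm differences, that on X turned to 0.01 in the combined list and that on 3L was 0.07 there. On 2R the medians were 0.82 and 0.76 against 0.77 and 0.76, on 2L 0.76 and 0.73 against 0.77 and 0.77, and on 3R 0.77 and 0.74 against 0.79 and 0.77.

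Within the ends of 2L, 2R, 3L and 3R the median score was higher in the inner than in the outer part. On 2L the median was 0.84 in replicate 1 and 0.90 in replicate 2 in the inner part, and 0.70 in both in the outer part. On 2R it was 0.90 and 0.82 in the inner part and 0.74 in both in the outer part. On 3L it was 0.85 and 0.91 in the inner part and 0.80 and 0.82 in the outer part. On 3R it was 0.77 in both replicates in the inner part and 0.72 and 0.71 in the outer part. Against the rest of the arm, the inner part stood higher by 0.10 ± 0.04 on 2L, 0.09 ± 0.05 on 2R and 0.11 ± 0.05 on 3L (SD, n = 2 each), over 8 to 26 regions per list. On X it stood below the rest, by -0.10 ± 0.01 (SD, n = 2), and on 3R it differed by -0.01 ± 0.01 (SD, n = 2). On 2L, 2R and 3L, the other replicate overlapped 54.5% and 46.2%, 52.6% and 55.6%, and 62.5% and 26.3% of the inner regions. In the rest of these arms it overlapped 72.9% and 64.7%, 72.0% and 66.6%, and 73.7% and 67.2%. Over the 5 ends, overlapped regions had median scores of 0.79 and 0.82 and the others 0.80 and 0.81. In the rest of the 5 arms these were 0.83 and 0.84, and 0.75 and 0.72. The part of this in the inner scores was not tested. The division of the ends was chosen after the bins had been seen.

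The upper tail differed from arm to arm. A region was counted as high-scoring where its score exceeded the 90th percentile of the rest of its own arm, which was 1.04 to 1.08 on the autosomal arms of the replicate lists and 1.26 and 1.27 on X. Over all regions of the 5 arms, 10.1% in replicate 1 and 10.2% in replicate 2 were high-scoring, close to 10% by construction. At the ends 32 of 262 and 44 of 307 were, or 12.2% and 14.3%. By whole end they were 11.5% and 17.5% on 2L, 17.3% and 14.8% on 2R and 20.9% and 22.0% on 3L. On X they lay below 10% in both replicates, at 6.38% and 4.84%. On 3R they were 7.35% and 13.2%. In the inner parts of 2L, 2R, 3L and X the shares were 14 of 61 and 20 of 82, or 23.0% and 24.4%. In their outer parts they were 13 of 133 and 15 of 157, or 9.77% and 9.55%. Over the whole ends of these 4 arms, the other replicate overlapped 12 of 27 and 15 of 35 high-scoring regions. In the rest of these arms it overlapped 95.3% and 94.5% of them.

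The arms again differed. In the inner part of 2L, 6 of 22 and 9 of 26 regions were high-scoring, in that of 2R 6 of 19 and 5 of 18, and in that of 3L 2 of 8 and 6 of 19. These shares ran from 25% to 34.6%. In the inner part of X none was (0 of 12 and 0 of 19), and on 3R there were 2 of 41 and 5 of 42. In the combined list, where 10.5% of the regions on the 5 arms were high-scoring by the same rule, the inner parts of 2L, 2R and 3L had 37.3%, 42.3% and 35.9%. Those of X and 3R had 16.4% and 18.8%.

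**Figure D4:**
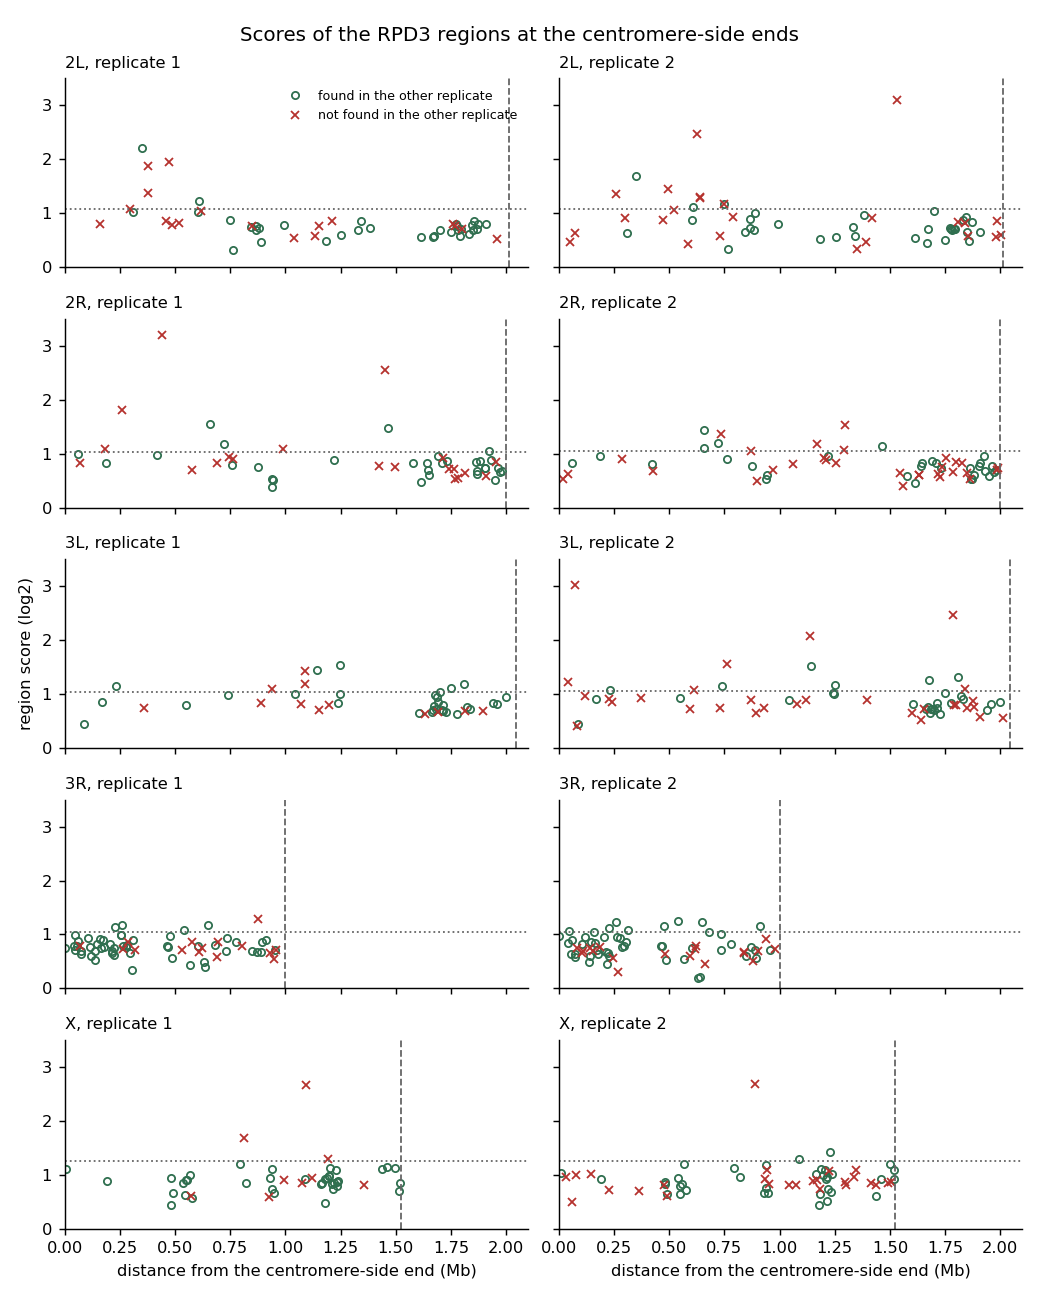
Score (y axis, log2) of each RPD3 region at the centromere-side ends against its distance from that end (x axis, Mb), by arm and replicate, with circles for regions found in the other replicate and crosses for those not found. The dashed line is the border of the end and the dotted line the 90th percentile of the rest of the arm. Scores above 2.5 belong to crosses on 2L, 2R, 3L and X, and the highest on 3R is 1.28.

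High score and width went together less closely at the ends than elsewhere. The Spearman correlation of width and score across regions was 0.27 and 0.33 at the ends in replicates 1 and 2, against 0.53 and 0.58 in the rest, as a description across regions of the same library. High-scoring regions had a median width of 1948 bp in replicate 1 and 2020 bp in replicate 2 at the ends, against 3278 and 3629 bp in the rest. The other members had median widths of 1732 and 1720 bp.

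At the ends, 50.0% and 54.5% of the high-scoring regions of replicates 1 and 2 had a counterpart in the opposite list. Over all regions of the 5 arms, 74.1% in replicate 1 and 65.4% in replicate 2 were overlapped by a region of the other. At the ends the shares were 71.8% (188 of 262) and 58.0% (178 of 307), a difference to the rest of -5.08 ± 3.77 percentage points (SD, n = 2). On 3R the difference was positive in both replicates, 3.498 and 7.84 points, and on X it was 2.62 and -8.09. The other list covered 7.47% and 6.06% of the bases at the ends and 15.7% and 13.5% in the rest, and the part of this in the overlap was not tested. Among high-scoring regions 16 of 32 and 24 of 44 were shared at the ends, against 95.1% and 95.2% in the rest. Among the other regions the shares were 74.8% and 58.6% at the ends against 71.8% and 62.4%.

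By arm the shares were low on 2L, 2R and 3L and high on 3R. On 2L, 2 of 6 and 3 of 10 high-scoring regions were shared, on 2R 4 of 9 and 4 of 9, and on 3L 6 of 9 and 6 of 13. On X there were only 3 in each replicate, of which 0 and 2 were shared, and on 3R 4 of 5 and 9 of 9 were. Of all high-scoring regions on the 5 arms that the other replicate lacked, 16 of 48 in replicate 1 and 20 of 54 in replicate 2 lay at the ends, 33.3% and 37.0%, on 7.21% of the length. Across 188 regions of replicate 1 at the ends and their partners in replicate 2, scores had Spearman's rho of 0.64 and Pearson's r of 0.72, and across 4836 in the rest 0.71 and 0.74, as a description.

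Among regions at the ends, the 3 highest unshared scores of each replicate were on the 4 arms with sparse ends. In replicate 1 they were 2R from 441265 to 442831 with 3.20, X from 21329980 to 21331793 with 2.67 and 2R from 1449925 to 1451429 with 2.55. In replicate 2 they were 2L from 21478651 to 21480138 with 3.11, 3L from 24468960 to 24470317 with 3.02 and X from 21531362 to 21532963 with 2.69. Each was between 1358 and 1814 bp wide, and each was chosen after its value was seen.

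The combined list was read against both replicates. Over the 5 arms, 24.2% of its regions were overlapped by both replicates and 54.2% by neither; at the ends these were 19.6% (168 of 858) and 58.7% (504 of 858). Among regions with a score above 1, 60 of 88 at the ends were in neither replicate list, or 68.2%, against 68 of 484 in the rest, or 14.0%. By arm these were 18 of 24 on 2L, 15 of 20 on 2R, 16 of 24 on 3L, 11 of 18 on X and 0 of 2 on 3R. Of the 128 such regions on the 5 arms, 46.9% thus lay at the ends, and 42 of the 128 lay in the inner parts. The 60 regions had a median width of 1164 bp, close to the 1140 bp of the 68 in the rest. On the 5 arms the narrowest region was 1301 bp in each replicate list and 1001 bp in the combined list. The median of the 60 thus lay below the width of any region in a replicate list. All 88 regions above 1 at the ends had a median width of 1502.5 bp, and the 484 in the rest 4238 bp. With no limit on score, the 504 end regions in neither replicate had a median score of 0.55 and a median width of 1297 bp, and the 168 in both had 0.66 and 2956 bp. In the rest of the arms, regions in neither replicate had 0.50 and 1269 bp, and those in both had 0.69 and 3526 bp. The part of width in these shares was not tested.

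**Figure D5:**
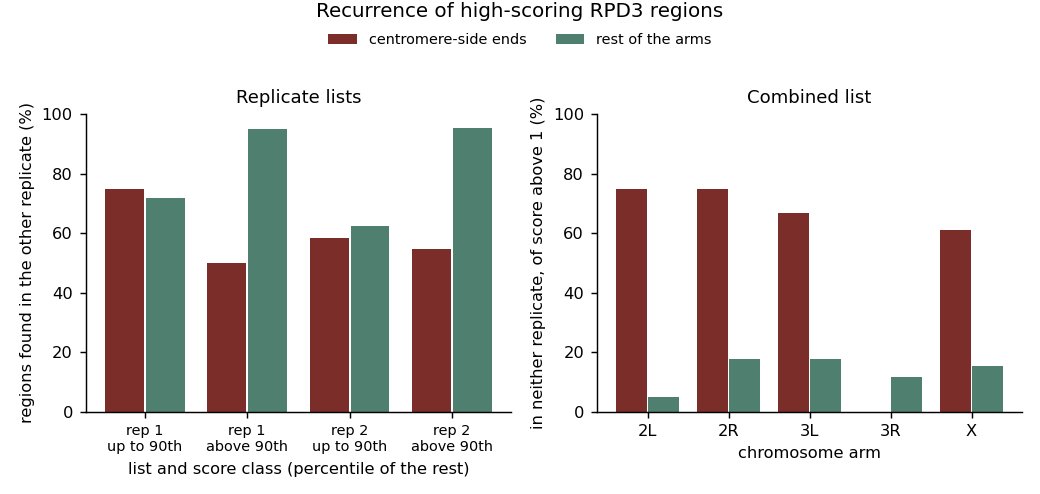
Left, percent of regions found in the other replicate (y axis) for regions up to and above the 90th percentile of score in the rest of the arm (x axis, by replicate); right, percent of combined-list regions with a score above 1 that no replicate list contains (y axis), by arm (x axis). Red bars are centromere-side ends and green bars the rest. Above the percentile, 50.0% and 54.5% recur at the ends against 95.1% and 95.2% in the rest, and the 3R end has 2 combined-list regions above 1, both found in a replicate.

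Some strong regions were found in both replicates, among 33, 29, 28, 46 and 32 such combined-list regions on 2L, 2R, 3L, 3R and X. The first on 2L, from 22661862 to 22664244, lay 349 kb from the end and scored 2.21 in replicate 1 and 1.69 in replicate 2, or 1.95 ± 0.37 (SD, n = 2). Next on 2L came 22401877 to 22407933, with 1.23 and 1.12, and 22539893 to 22541458, with 1.95 and 0.87. The region with the largest spread was the last of these, and its replicate regions overlapped the combined region without overlapping each other.

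On 2R the strongest was 656636 to 660589, with 1.55 in replicate 1 and 1.43 in replicate 2. It was followed by 1463093 to 1466389, with 1.47 and 1.15, and by 720660 to 724471, with 1.19 in each. The strongest and the last lay in the inner part, in bins with 2 to 4 regions in each replicate.

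On 3L the strongest were 23400678 to 23404154, with 1.45 in replicate 1 and 1.52 in replicate 2, and 23292324 to 23295748, with 1.54 and 1.17. The third was 22732057 to 22736373, with 1.19 and 1.31. The first pair lay 1141 and 1250 kb from the end, on the centromere side of the empty stretch. The second of them is next to the widest region of this end, 23296002 to 23306237 (10236 bp), which held 3 regions of replicate 1 and 2 of replicate 2. Its best scores were 1.54 and 1.03, the first of them from the same replicate 1 region that gave its neighbour's 1.54.

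On X the strongest were 21192067 to 21198659, with 1.09 in replicate 1 and 1.42 in replicate 2, 21214423 to 21232303, with 1.30 and 1.08, and 21629279 to 21632008, with 1.20 and 1.12. The second was also the widest at any of the 5 ends, 17881 bp, with 4 and 2 replicate regions, and it lay in the rich bins near 1200 kb. Its 1.30 came from a replicate 1 region, 21230534 to 21232004, that no region of replicate 2 overlapped. The best replicate 1 score there with a replicate 2 counterpart was 1.13. On 3R the strongest were 644626 to 648053, with 1.18 and 1.24, 253502 to 266958, with 1.18 and 1.23, and 538511 to 540983, with 1.09 and 1.24. The second of these was the widest on 3R, 13457 bp, with 5 and 2 replicate regions. The strongest on 3R and X averaged 1.21 and 1.25, below 1.95, 1.49 and 1.48 on 2L, 2R and 3L. On 2L the widest was 21161709 to 21169707 (7999 bp, best scores 0.79 and 0.94) and on 2R 936318 to 943632 (7315 bp, 0.53 and 0.60), where the score was low in both.

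The border itself is a line on the map, and the regions next to it varied. The last region inside it scored 0.51 to 1.09 over the 5 arms and 2 replicates, lowest on 2L and highest on X, and the first outside it 0.33 to 0.87. On X the inside neighbours, 0.86 in replicate 1 and 1.09 in replicate 2, and the outside neighbours, 0.33 and 0.41, lay within a few kb of each other.

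Sequences that the assembly names as heterochromatin of the same arms were sparse too on 2L, 2R, 3L and 3R. 2RHet had 12.8 regions per Mb in replicate 1 and 10.0 in replicate 2, 3LHet 17.2 and 12.9, and 3RHet 16.7 and 13.9. Their median scores were 1.05 and 0.90, 1.04 and 1.00, and 0.94 and 0.91. These densities lay below or within the range of the inner parts of 2R and 3L and far below the 82 and 84 per Mb of the inner part of 3R. 2LHet, only 0.369 Mb long, held 5 and 7 regions, or 13.6 and 19.0 per Mb. XHet, only 0.204 Mb long, held 6 and 9, or 29.4 and 44.1 per Mb. These densities were above the inner part of X and similar to the whole X end. Median scores were 1.27 and 0.95 in 2LHet and 1.39 and 1.04 in XHet. The XHet medians lay above those of the inner part of X, 0.86 and 0.82, and of the rest of X, 0.96 and 0.93.

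The opposite ends of 2L, 2R, 3L and X were dense, and that of 3R was not. Over the 5 arms, telomere-side zones of equal length had 78.0 regions per Mb in replicate 1 and 85.7 in replicate 2. The centromere side had 30.5 and 35.8, a ratio of 0.405 ± 0.018 (SD, n = 2). On 3R the telomere-side zone had 58 and 66 per Mb, below the 60.1 and 67.8 in the rest of that arm. Median widths in the pooled telomere-side zones were 2002 and 2018 bp and median scores 0.82 and 0.81. The highest telomere-side scores were 1.57 and 1.69 in replicates 1 and 2, against 3.20 and 3.11 at the centromere side. The order was the other way in the combined list, 3.20 at the telomere side, on X, against 2.96.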

How the data were processed

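Chromatin from embryos fixed in 1.8% formaldehyde was immunoprecipitated with an RPD3 antibody, per the labels' protocols. The submitters' processing notes name Bowtie 0.12.7. Coordinates follow FlyBase release 5, per the file headers. The region caller and its thresholds were not given in the sources used here, nor was the handling of repeats and duplicate reads or the origin of the combined list. The authors' deposited score of a region was read as a log2 ratio. Powers of 2 of score differences were ratios of whole numbers with denominators up to 200 for 65.1%, 41.8% and 48.8% of regions in replicate 1, replicate 2 and the combined list, within a relative tolerance of 1e-09, against at most 1.42% for base e or 10. Its reading as ChIP over input is an inference from the inputs named in the labels. Read numbers were unknown, so no value has an error from counting.

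Regions were assigned to ends by midpoint, divided at the middle of each end into an inner and an outer part, and counted in bins of 100 kb from the centromere-side end of the assembled arm. Overlap of at least 1 bp made a region shared. Values were computed in each replicate list and are given with the SD over n = 2. No significance test was run: the labels give a single ChIP group, the inputs have no values of their own here, and regions or bins of 1 library are not replicates. On each arm, the named regions were the 3 combined-list regions overlapped by both replicates that had the highest mean percent rank of replicate scores. The best score was used where several replicate regions overlapped. The widest combined-list region overlapped by both replicates was named too. Also named were the region nearest the centromere-side end of the assembled arm, the longest region-free stretch and the bin with most regions. Others named were chosen after their values were seen. The members and lists were chosen with earlier results of these data known. Gene positions at hand follow release 6, so no gene is assigned and no sequence is printed. The statistics were tested on simulated data. Python 3.11.15, numpy 2.4.6, pandas 2.3.3, scipy 1.17.1 and matplotlib 3.10.9 were used. No columns of other samples were met (0 columns).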

Additional observations from a re-analysis of the deposited data

How the results depend on the processing

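Depth is unknown, and the number of regions depends on it and on an unknown threshold. No paired analysis was possible because there is a single ChIP group and the inputs have no values of their own here. The inner and outer parts and the pooling of 4 arms were chosen after the data were seen. For the 5 ends pooled, 43 of 60 alternative values stayed within 1 SD of the value reported. The 60 include each replicate alone for every measure, and with n = 2 such a value lies within 1 SD of the mean by construction. The density ratio of 0.537 stayed below 1 in all 15 alternatives: it was 0.640 in the combined list, 0.442 for regions of at least the median width, 0.480 and 0.591 with the border moved by 250 kb towards and away from the centromere, 0.405 against telomere-side zones, and 0.596, 0.568 and 0.468 without 2R, 3L and 3R. The width difference of -161.5 bp was -23.5 in the combined list, -518 among regions of at least the median score, -253 against telomere-side zones and -203.5 without 3R. The score difference of 0.0057 was 0.038 in the combined list, -0.030 among regions of at least the median width and -0.014 against telomere-side zones. The shared-percent difference of -5.08 points was -17.4 among regions of at least the median score and -8.90 among those of at least the median width. By arm, 8 alternative values had the opposite direction to a value whose direction both replicates shared. The combined list gave a width difference of 41.5 bp and a score difference of 0.049 on 2L, a score difference of 0.014 on X and a density ratio of 0.875 on 3R. Regions of at least the median score gave score differences of 0.059 on 2L and 0.017 on 3R and a density ratio of 0.848 on 3R, and the border nearer the centromere gave a score difference of 0.034 on 2L. The cause of these changes was not tested. A further 61 values by arm or by bin width moved by more than 1 SD, some across 0 where the replicates themselves differed in direction, as in the score on 2R and the width on 3R. The share of end bins below the median bin of the rest was 77.1% with 100-kb bins, 68.5% with 50-kb bins and 79.8% with 200-kb bins. Leaving out a replicate leaves the pooled density ratio of the other, 0.556 without replicate 1 and 0.517 without replicate 2.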
